A study of Arabidopsis thaliana with 18 samples.

Results

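AT2G18370, AT3G58550, AT2G15325 and AT5G48490 are 4 genes of the lipid transfer protein superfamily of Arabidopsis thaliana, and their transcript levels are described here in developing seeds of the accessions C24 and Col-0. They were picked by locus for the size of their differences in these same arrays. Each was represented by 1 probe set annotated to no other gene, so that they are 4 of the 11590 genes that had a probe set of their own, among 19755 probe sets in all. AT2G18370 and AT2G15325 lie on chromosome 2, AT3G58550 on chromosome 3 and AT5G48490 on chromosome 5.

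Lipid transfer proteins are small secreted proteins in which a conserved set of cysteines, joined in disulfide bonds, folds helices around a cavity that binds lipids. In plants they are known for work at the cell surface, in the building of cutin, wax and suberin layers, and for roles in defence signalling. The superfamily also holds the seed storage albumins, forms with a proline-rich stretch, and forms held at the plasma membrane by a glycosylphosphatidylinositol (GPI) anchor. The files do not give a more specific name for any of the 4 genes.

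Total RNA was hybridised to Affymetrix ATH1 arrays in 6 groups of 3 arrays each, which are C24 seeds and Col-0 seeds at 8-9, 10-11 and 12-13 days after flower opening. The labels give no transgene or treatment for either accession. A replicate is the seeds of 48 pooled siliques, with 6 plants giving 8 siliques apiece, and 12 plants of an accession were grown over 2 experiments. Replicates and stages thus had plants in common, and p-values cover the variation among pools, not among plants. All levels are log2 intensities as deposited by the authors, on which 1 unit is a 2-fold difference, and differences between stages are later minus earlier and between accessions C24 minus Col-0.

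The members were chosen by measured values, and the comparisons that chose them are given without a test. AT2G18370 was chosen for the difference of 12-13 minus 8-9 days in Col-0, the 7th highest of 11763 probe sets with a single gene. AT3G58550 was chosen for the same difference in C24, the 8th highest, and for that of 12-13 minus 10-11 days in Col-0, the 2nd highest. AT2G15325 was chosen for the accession difference at 8-9 days, the lowest of all, and for the accession difference in the change to 12-13 days, the 2nd highest. AT5G48490 was chosen for the difference of 12-13 minus 8-9 days in C24, the 8th lowest. A p-value is printed for a member only in the 9 of 48 member and comparison pairs that share no array with a comparison that chose it. These p-values come from limma, with Benjamini-Hochberg adjustment over all 19755 probe sets and a threshold of 0.05. Each SE rests on a single spread per gene, pooled over all 6 groups. It may be too small where the groups compared vary more than the others, and p-values and intervals then overstate the certainty.

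The arrays were similar in overall level, with medians between 6.05 and 6.17 and 25th percentiles between 4.41 and 4.57. The table has no detection measure, so levels near this percentile may be background, and differences from them may be too small. Of the seed storage markers, 2 of 7 were measured (PAP85 and OLEO3), and their mean lay between 12.25 and 13.47 on every array. Of the seed coat markers, 4 of 9 were measured, and their mean over an array lay at 9.75 to 10.21, 8.03 to 8.22 and 7.85 to 7.98 in C24 over the 3 stages, and at 10.75 to 10.93, 8.33 to 8.58 and 7.66 to 7.87 in Col-0. Of the endosperm markers 1 of 6 was measured, and so was 1 of 6 silique wall and flower markers. The endosperm gene AGL62 lay at 3.47 to 4.05, below the 25th percentiles, and does not show how much endosperm the seeds held. The silique wall gene ALC lay at 5.64 to 6.53. Seeds hold embryo, endosperm and seed coat together, and fewer cells of a type and less RNA per cell cannot be told apart in them.

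AT2G18370 lay low at 8-9 days in both accessions and was high by 12-13 days, with the 10th highest difference of 11763 probe sets in C24. In C24 its 3 pools had levels of 5.29, 5.18 and 5.45 at 8-9 days, 9.01, 10.48 and 10.59 at 10-11 days, and 12.67, 12.80 and 12.54 at 12-13 days. In Col-0 the levels were 4.58, 4.50 and 4.51 at 8-9 days, 8.98, 5.72 and 8.65 at 10-11 days, and 12.43, 12.59 and 12.25 at 12-13 days. The 3 stages did not overlap in either accession, and the Col-0 pools at 8-9 days lay beside the 25th percentile of their arrays. The order of the 6 groups was C24 and Col-0 at 12-13 days, whose ranges overlapped, then C24 at 10-11, Col-0 at 10-11, C24 at 8-9 and Col-0 at 8-9 days, with no overlap between these neighbours.

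**Figure D1:**
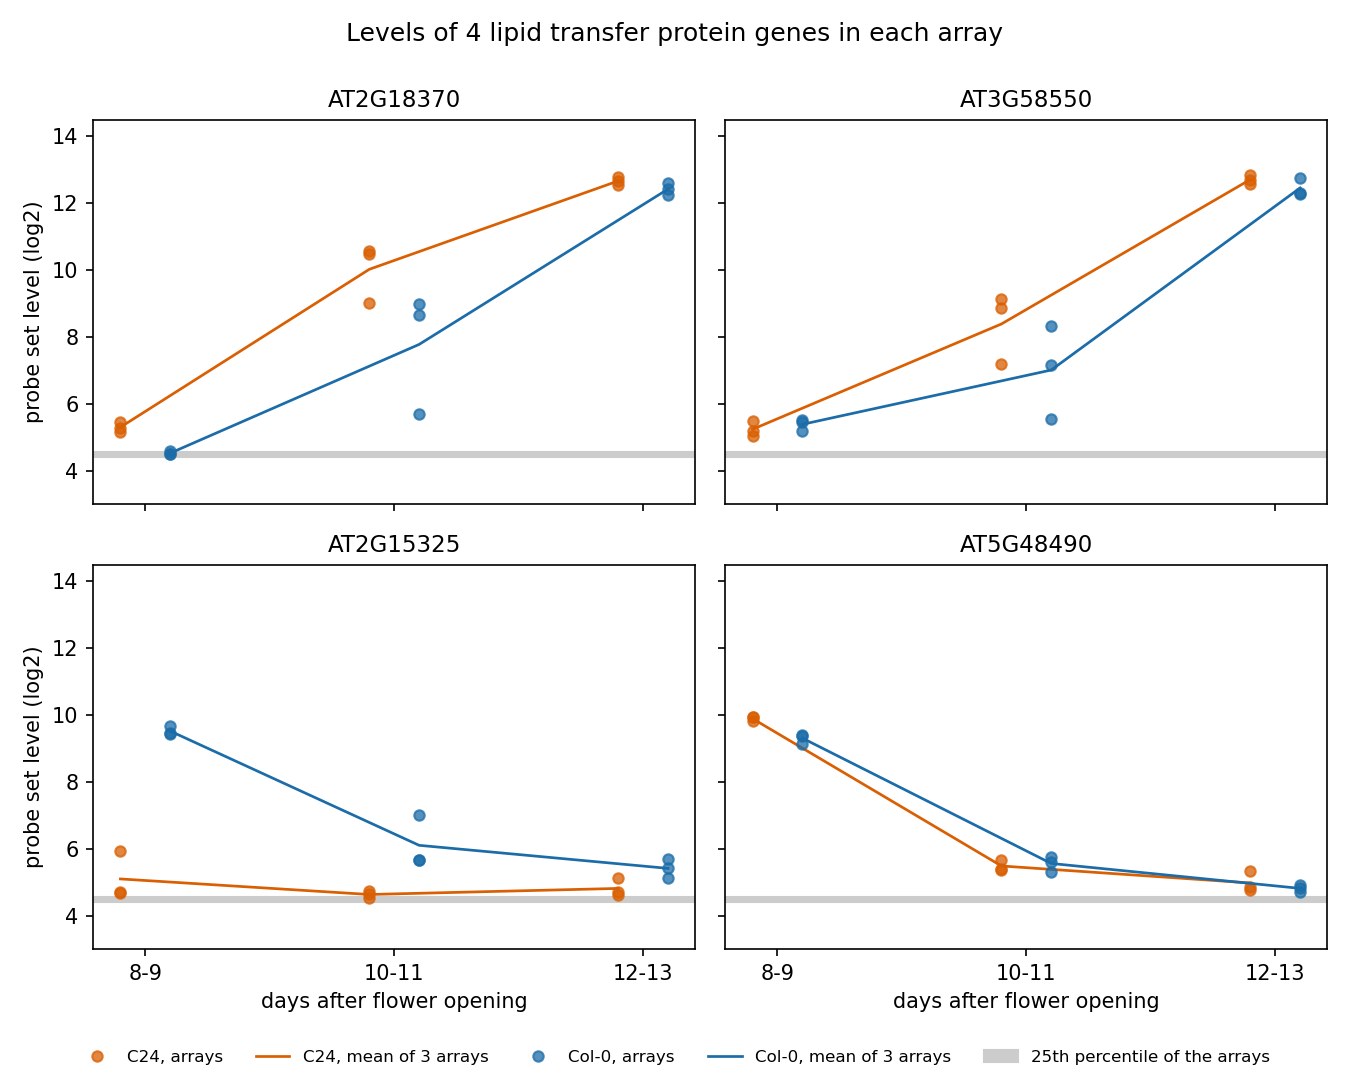
Log2 level of the 4 lipid transfer protein genes in each of the 18 arrays, with stage on the x axis (days after flower opening), C24 left of Col-0. Points are single pools, lines join the group means (n = 3) and the grey band spans the 25th percentiles of the arrays. AT2G18370 and AT3G58550 reach 12.25 or more in every pool at 12-13 days, AT2G15325 is above 9 only in Col-0 at 8-9 days, and AT5G48490 is above 9 only at 8-9 days, in both accessions.

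In C24, whose stages were not used to choose it, AT2G18370 rose at both steps. The level at 10-11 days exceeded that at 8-9 days by 4.72 ± 0.56 (SE; adjusted p = 9.75e-07, limma), a step at which 24.0% of all probe sets were called higher. The level at 12-13 days exceeded that at 10-11 days by a further 2.64 ± 0.56 (adjusted p = 0.00146, limma), where 11.7% of probe sets were called higher. Over both steps the gene rose by 7.36 ± 0.56 (95% confidence interval 6.19 to 8.53, adjusted p = 1.34e-09, limma), a 164-fold difference, at which 29.4% of probe sets were called higher. The matching difference in Col-0, the one that chose the gene, was 7.89.

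At 10-11 days AT2G18370 averaged 10.03 ± 0.88 in C24 and 7.78 ± 1.80 in Col-0 (SD, n = 3 each). C24 was higher by 2.25 ± 0.56 (SE; 95% confidence interval 1.08 to 3.41, adjusted p = 0.00717, limma), a 4.74-fold difference, and 9.61% of all probe sets were called higher in C24 at this stage. The SE is pooled over all 6 groups, and the SDs at the other stages were only 0.04 to 0.17. The interval and p-value may thus overstate the certainty at this stage. The accession ranges came close to touching, at 9.01 for the lowest C24 pool and 8.98 for the highest Col-0 pool. The size of the difference rested on replicate 2 of Col-0 at 10-11 days, without which it was 1.21 (adjusted p = 0.0102, limma). At the other stages the accession difference was 0.78 at 8-9 days and 0.24 at 12-13 days.

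AT3G58550 followed a similar course with a later increase. Its C24 levels were 5.20, 5.04 and 5.49 at 8-9 days, 7.18, 8.87 and 9.12 at 10-11 days, and 12.85, 12.57 and 12.71 at 12-13 days. Its Col-0 levels were 5.46, 5.53 and 5.19 at 8-9 days, 8.32, 5.56 and 7.16 at 10-11 days, and 12.32, 12.77 and 12.29 at 12-13 days. The accessions overlapped at each of the 3 stages, and the stages of an accession did not overlap, although replicate 2 of Col-0 at 10-11 days lay just above the pools at 8-9 days. At 10-11 days the mean was 8.39 ± 1.05 in C24 and 7.01 ± 1.38 in Col-0 (SD, n = 3 each), a difference of 1.38 ± 0.49 (SE), which was 0.65 without that replicate. Every comparison of this gene shares arrays with one that chose it, and none is tested here.

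The change of AT3G58550 over both steps was 7.47 in C24 and 7.07 in Col-0. The step to 10-11 days gave 3.15 in C24 and 1.62 in Col-0, and the step to 12-13 days gave 4.32 in C24 and 5.44 in Col-0. Of the whole change, 42.2% in C24 and 23.0% in Col-0 fell in the first step. For AT2G18370 the first step held 64.1% of the change in C24 and 41.2% in Col-0. Both genes thus had a larger share of their change by 10-11 days in C24 than in Col-0, and AT2G18370 a larger share than AT3G58550 in each accession. Whether these shares differ beyond the spread was not tested. With replicate 2 of Col-0 at 10-11 days left out, the Col-0 steps were 4.28 and 3.61 for AT2G18370 and 2.35 and 4.72 for AT3G58550.

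The 10-11 day pools varied more for these genes than pools of the other stages. Replicate 1 of C24 had the lowest level of its group in both genes, and so had replicate 2 of Col-0. The same pools had the lowest scores of their groups on the first principal component of the 18 arrays, which was computed without the 4 members and held 73.1% of the variance. Among the remaining pools of each group the order was the opposite, with the higher level at the lower score in both genes. At 10-11 days the scores were 22.2, 27.3 and 25.9 in C24 and 6.80, -0.85 and 15.8 in Col-0. At 8-9 days they lay between -74.6 and -68.7 in C24 and between -83.5 and -78.7 in Col-0, and at 12-13 days between 57.4 and 61.7 in C24 and at 60.3 to 60.4 in Col-0. The component thus ordered the stages, the C24 pools of the middle stage lay nearer to the late pools than the Col-0 ones, and its part in the accession difference of AT2G18370 was not tested.

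**Figure D2:**
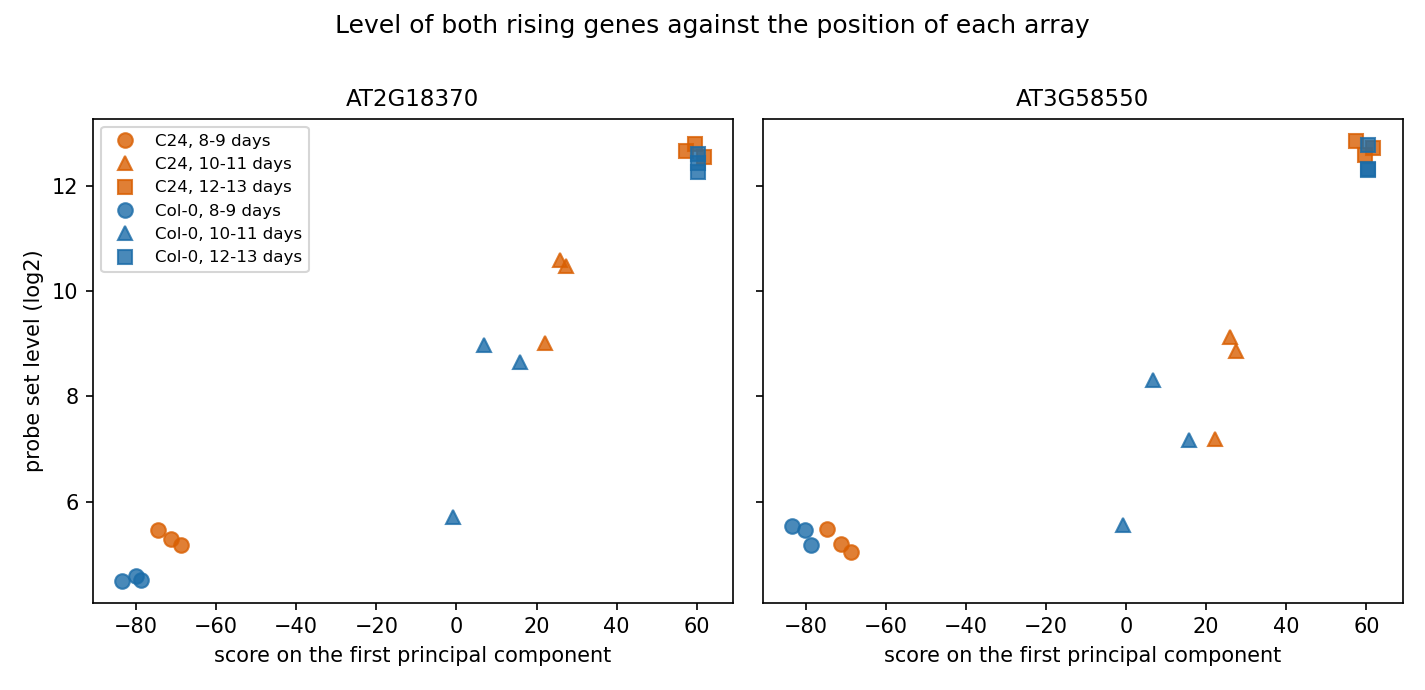
Log2 level of AT2G18370 (left) and AT3G58550 (right) against the array's score on the first principal component (73.1% of the variance, members left out), 1 point per pool, with colour for accession and shape for stage. The 10-11 day pools, scoring -0.85 to 27.3, spread over levels of 5.72 to 10.59 in AT2G18370 and 5.56 to 9.12 in AT3G58550.

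The genes most like each member were taken as the 4 with the highest Pearson correlation over the 18 arrays among 883 single-gene probe sets whose group means spanned at least 2 log2 units. For AT3G58550 the closest was FACT, which encodes an acyltransferase that makes alkyl caffeates found with root suberin and wax (r = 0.993, Spearman's rho = 0.979, 18 arrays). FACT averaged 5.04, 7.65 and 12.40 in C24 over the 3 stages and 5.03, 6.11 and 11.62 in Col-0, with 35.4% of its change in the first step in C24 and 16.3% in Col-0. AT1G14940 (r = 0.989), AT1G30860 (r = 0.985) and IRX15-L, which acts in the synthesis of the cell wall polymer xylan (r = 0.98), came next. For AT2G18370 the closest were AT4G18920 (r = 0.99), AT2G16790, AT1G30700 and AT4G19720 (r = 0.986 for AT4G19720). The 2 late genes correlated with each other at r = 0.968 (rho = 0.944), which placed AT3G58550 as the 35th most like AT2G18370 and AT2G18370 as the 23rd most like AT3G58550. The arrays share stage, so that any gene with a large late increase correlates with both.

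AT2G15325 was high in Col-0 seeds at 8-9 days and low elsewhere. In C24 its levels were 5.93, 4.68 and 4.71 at 8-9 days, 4.53, 4.73 and 4.66 at 10-11 days, and 4.72, 4.62 and 5.13 at 12-13 days. In Col-0 they were 9.46, 9.45 and 9.67 at 8-9 days, 7.01, 5.66 and 5.66 at 10-11 days, and 5.13, 5.43 and 5.70 at 12-13 days. Most C24 pools lay close to the 25th percentile of their arrays at every stage, and replicate 1 at 8-9 days was the highest of them. Below Col-0 at 8-9 days, which overlapped no other group, the ranges overlapped from each group to the next, in the order Col-0 at 10-11 and 12-13 days and then C24 at 8-9, 12-13 and 10-11 days.

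At 10-11 days, a stage outside the comparisons that chose it, AT2G15325 averaged 4.64 ± 0.10 in C24 and 6.11 ± 0.78 in Col-0 (SD, n = 3 each), with no overlap. It was lower in C24 by a log2 difference of -1.47 ± 0.32 (SE; 95% confidence interval -2.14 to -0.80, adjusted p = 0.00250, limma), which is 2.77-fold, and 9.54% of all probe sets were called lower in C24. Without replicate 1 of Col-0 at 10-11 days, its highest pool, the difference was -1.02 (adjusted p = 0.0151, limma). The 10-11 day pools came from the same plants as the pools at 8-9 days, where the accession difference of -4.42 chose the gene. At 12-13 days the accession difference was -0.60.

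In Col-0 the level of AT2G15325 differed by -3.41 at the first step and -0.69 at the second, so that 83.2% of its change of -4.10 lay in the first step. In C24 the matching values were -0.46 and 0.18, all near the low end of the arrays. All 4 measured seed coat markers fell over the first step in both accessions, with a median difference of -1.67 in C24 and -2.56 in Col-0, where 26.0% of all probe sets were called lower in C24 and 23.3% in Col-0. At 8-9 days 3 of the 4 were lower in C24, where 9.22% of probe sets were called lower. Their median accession difference was -0.80, from -1.73 for PRX36 to -0.26 for ARA12, and that of AT2G15325 was -4.42. In C24, where the markers also fell, AT2G15325 lay near the low end of the arrays from the start, so that a fall could hardly show. The part of the seed coat in its levels was not tested. The genes most like it were AT2G43660 (r = 0.959, rho = 0.837), AT5G03350 (r = 0.946), AT1G11590 (r = 0.941) and 2A6, a gene of an oxygenase family (r = 0.93), over 18 arrays of which the 3 Col-0 arrays at 8-9 days stand apart.

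**Figure D3:**
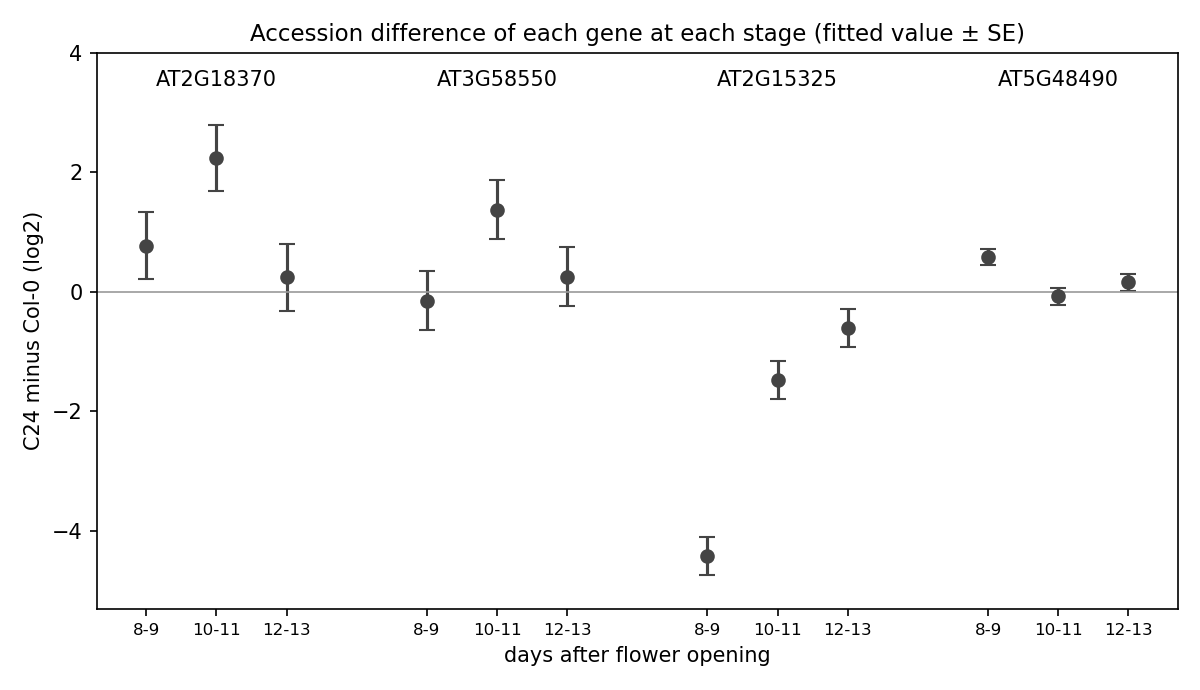
Log2 difference of C24 minus Col-0 at each stage (x axis, days after flower opening) for the 4 genes, with points for the limma estimate and bars for its SE. AT2G15325 lies below 0 at 8-9 days (-4.42) and approaches 0 by 12-13 days (-0.60), while AT2G18370 is farthest above 0 at 10-11 days (2.25). Differences that share arrays with the choice of the gene are a description.

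AT5G48490 was high at 8-9 days and low at both later stages in both accessions. Its levels in C24 were 9.94, 9.94 and 9.81 at 8-9 days, 5.68, 5.41 and 5.39 at 10-11 days, and 5.33, 4.86 and 4.76 at 12-13 days. In Col-0 they were 9.38, 9.42 and 9.15 at 8-9 days, 5.63, 5.77 and 5.31 at 10-11 days, and 4.94, 4.71 and 4.83 at 12-13 days. At 8-9 days every C24 pool lay above every Col-0 pool, by 0.58 on average, and the accessions overlapped at both later stages. The pools of a group differed little, with SDs between 0.07 and 0.30, and those at 12-13 days came close to the 25th percentile of their arrays, so that differences against them may be too small.

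In Col-0, whose stages did not choose it, AT5G48490 fell at both steps. It fell by 3.75 ± 0.14 log2 units over the first step (SE; adjusted p = 1.89e-13, limma), a 13.4-fold difference at a step where 23.3% of all probe sets were called lower. It fell by a further 0.74 ± 0.14 over the second step (adjusted p = 0.000317, limma), where 18.3% of probe sets were called lower. From 8-9 to 12-13 days it fell by 4.49 ± 0.14 (SE; adjusted p = 6.09e-15, limma), a 22.5-fold difference, where 30.5% of probe sets were called lower. The first step held 83.4% of the change in Col-0 and 89.7% in C24, where the whole difference of -4.91 chose the gene.

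The accessions did not differ detectably in AT5G48490 at 10-11 days, where the mean was 5.49 ± 0.17 in C24 and 5.57 ± 0.23 in Col-0 (SD, n = 3 each). The difference was -0.07 with a 95% confidence interval from -0.37 to 0.22 (adjusted p = 0.786, limma), at a stage where 19.1% of probe sets were called in either direction. The genes most like AT5G48490 over the 18 arrays were AT1G62780 (r = 0.993, rho = 0.915), AUR3, which encodes an Aurora kinase of cell division (r = 0.992), AT5G45700 (r = 0.99) and AT3G10590 (r = 0.989, rho = 0.794). AT5G48490 and AT2G15325, whose levels in Col-0 were both highest at 8-9 days, correlated at r = 0.51 (rho = 0.21) over the 18 arrays, and AT2G15325 was low in C24 at that stage.

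**Figure D4:**
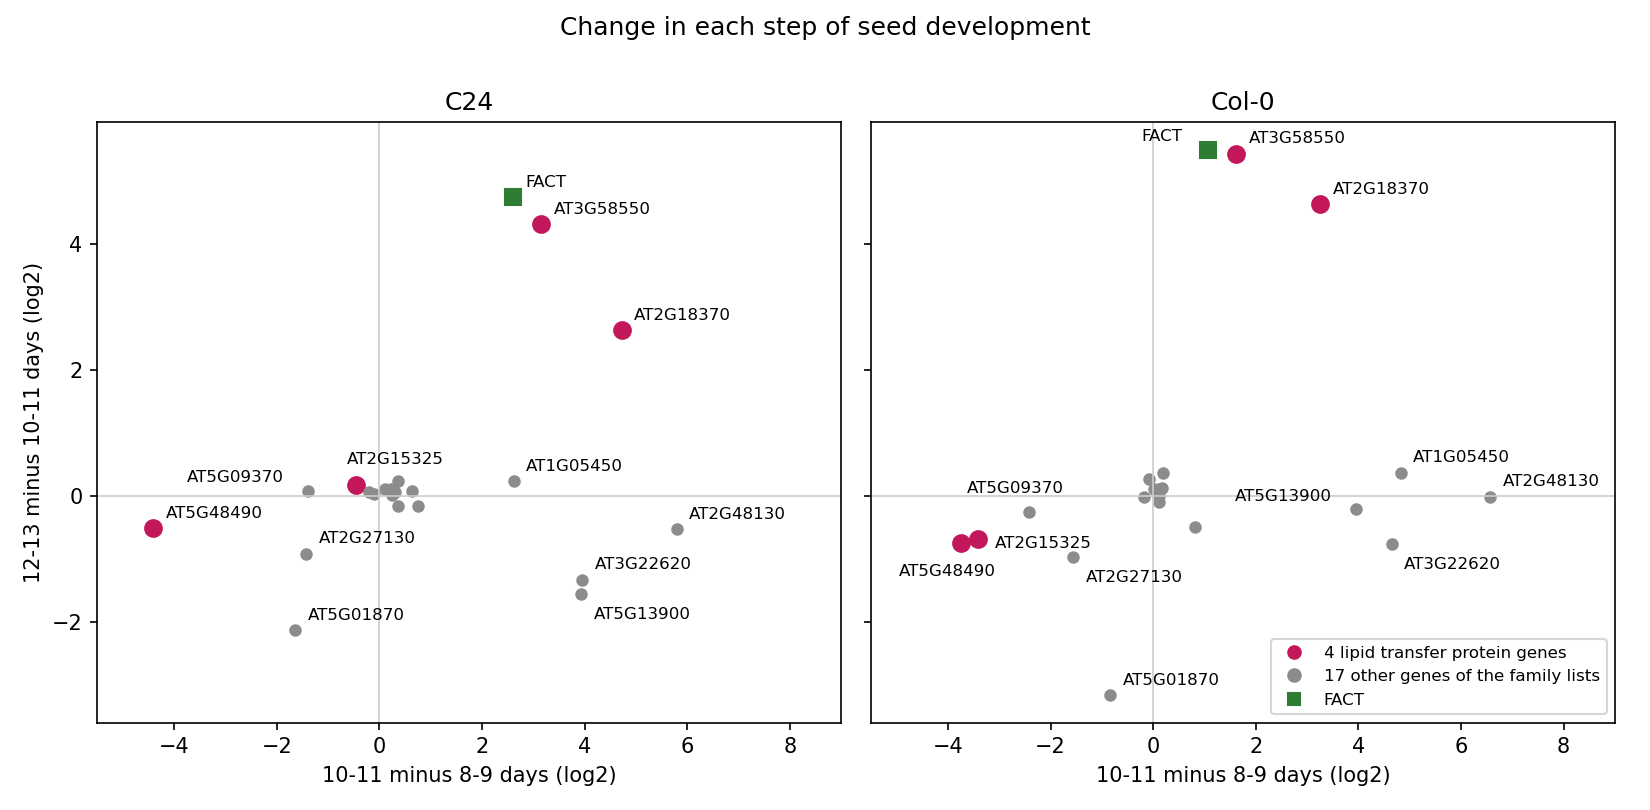
Log2 difference of 12-13 minus 10-11 days (y axis) against that of 10-11 minus 8-9 days (x axis) in C24 (left) and Col-0 (right), for the 4 members, FACT and the other measured genes of the lipid transfer protein lists. AT2G18370 (2.64 in C24, 4.64 in Col-0) and AT3G58550 (4.32 and 5.44) lie above the other 17 family genes, whose highest second-step difference is 0.25 in C24 and 0.37 in Col-0. The value of 5.44 chose AT3G58550, and those of 4.64 and 4.32 share arrays with a choice, so their place is a description.

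To set the 4 genes beside their family, 63 further genes were listed by hand as type 1 lipid transfer proteins, GPI-anchored lipid transfer proteins, hybrid proline-rich proteins and seed storage albumins. The lists leave out the 4 members, so they do not show to which of these types a member belongs. A single-gene probe set was present for 17 of the listed genes, which were 12 of 26 GPI-anchored, 4 of 19 hybrid proline-rich, 1 of 13 type 1 and 0 of 5 albumin genes. From 8-9 to 12-13 days in C24, 10 of the 17 rose and 3 fell, against 29.4% of all probe sets called higher and 59.4% called in either direction, and their median difference was 0.33 against 0.03 for all probe sets. In Col-0 over the same span, 6 rose and 3 fell, against 30.1% called higher and 30.5% called lower, with a median of 0.19 against 0.02. Among the 12 GPI-anchored genes, 7 rose and 2 fell in C24, and 5 rose and 2 fell in Col-0.

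As over all probe sets, more genes of the family were called in the first step than in the second. From 8-9 to 10-11 days, 8 of the 17 family genes rose and 3 fell in C24, against 24.0% and 26.0% of all probe sets, and 5 rose and 2 fell in Col-0, against 19.9% and 23.3%. From 10-11 to 12-13 days, 1 rose and 5 fell in C24, against 11.7% and 14.1% of all probe sets, and 1 rose and 4 fell in Col-0, against 17.6% and 18.3%. The change with stage itself differed between the accessions in some of them. Taken with its sign, the change over the first step was higher in C24 for 1 gene and lower for 3, against 3.88% and 4.24% of all probe sets. The gene with the higher value, AT5G09370, fell less in C24 (-1.40) than in Col-0 (-2.42). For the second step these counts were 0 and 1, against 3.68% and 4.59%, and for the whole span 2 and 4, against 4.73% and 5.90%. The gene with the lower value in the second step, AT5G13900, fell more in C24 (-1.55) than in Col-0 (-0.21). As single arrays were left out, the calls of both directions together ranged from 1 to 5 for the first step and from 1 to 2 for the second.

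The largest increases were in the GPI-anchored genes AT2G48130, AT1G05450 and AT3G22620. AT2G48130 averaged 5.86, 11.66 and 11.13 in C24 over the 3 stages and 4.72, 11.29 and 11.28 in Col-0, and rose by 5.27 ± 0.14 in C24 (adjusted p = 1.10e-15, limma) and by 6.56 ± 0.14 in Col-0 (adjusted p = 4.77e-17, limma). AT1G05450 rose by 2.86 ± 0.31 in C24 (adjusted p = 1.98e-07, limma) and by 5.19 ± 0.31 in Col-0 (adjusted p = 3.68e-11, limma). AT3G22620 rose by 2.62 ± 0.13 in C24 and by 3.88 ± 0.13 in Col-0. These increases lay in the first step, after which the differences of AT2G48130 were -0.52 in C24 and -0.01 in Col-0, those of AT3G22620 -1.33 and -0.77, and those of AT1G05450 0.24 and 0.37. AT2G18370 and AT3G58550, by contrast, gained 2.64 or more in the second step in each accession. The second step in Col-0 was itself a comparison that chose AT3G58550. Only the gain of AT2G18370 in C24 shares no array with a choice, so the contrast is in part set by the choice.

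The genes that fell most were AT5G01870, AT2G27130 and AT5G09370 in both accessions. AT5G01870 was the only measured gene of the type 1 list. In C24 it had 10.51, 10.38 and 10.36 at 8-9 days and 8.61, 5.66 and 5.65 at 12-13 days, where replicate 1 stood apart. In Col-0 it had 10.57, 10.68 and 10.47 at 8-9 days and 6.21, 6.37 and 7.12 at 12-13 days. It fell by 3.77 ± 0.50 in C24 (adjusted p = 2.64e-06, limma) and by 4.01 ± 0.50 in Col-0 (adjusted p = 1.10e-06, limma). It differs from AT5G48490 in the timing, with a second-step difference of -2.13 in C24 and -3.17 in Col-0 against -0.51 and -0.74 for AT5G48490. AT2G27130 fell by 2.34 ± 0.09 in C24 and fell by 2.53 ± 0.09 in Col-0 (SE), and AT5G09370 fell by 1.31 ± 0.19 in C24 and fell by 2.67 ± 0.19 in Col-0.

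Between the accessions at 8-9 days, 3 of the 17 family genes were higher in C24 and 2 were lower, against 10.3% of all probe sets called higher and 9.22% called lower. AT1G05450 averaged 8.94 ± 0.37 in C24 and 6.39 ± 1.01 in Col-0 (SD, n = 3 each), higher by 2.55 ± 0.31 (SE; adjusted p = 7.62e-06, limma), and AT2G48130 was higher by 1.15 ± 0.14 and AT3G22620 by 0.78 ± 0.13. The Col-0 pools of AT2G48130 lay at 4.62 to 4.83, near the 25th percentile of the arrays, so differences from them may be too small. AT5G09370 averaged 6.77 ± 0.29 in C24 and 8.39 ± 0.17 in Col-0, a difference of -1.62 ± 0.19 (adjusted p = 5.29e-06, limma), and AT1G62790 differed by -0.62 ± 0.08. AT5G09370 shares the direction of AT2G15325 at this stage, with a smaller difference.

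At 10-11 days 1 family gene was called higher in C24 and 2 lower, against 9.61% and 9.54% of all probe sets. These were AT2G44300 with 0.31 ± 0.10 (SE; adjusted p = 0.0406, limma), AT5G09370 with -0.60 ± 0.19 (adjusted p = 0.0321, limma) and AT1G62790 with -0.29 ± 0.08 (adjusted p = 0.0223, limma). None of these calls held against the loss of single arrays of this stage. AT5G09370 missed the threshold without replicate 1 or 2 of Col-0 or replicate 2 or 3 of C24 (adjusted p of 0.0594 to 0.177, limma), and AT1G62790 without replicate 1 or 2 of either accession (0.0692 to 0.0927). AT2G44300 missed it without any Col-0 replicate, without replicate 2 or 3 of C24 or without replicate 2 of C24 at 8-9 days (0.0503 to 0.190). The number of calls ranged from 0 to 5 as single arrays were left out.

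At 12-13 days 2 family genes were higher in C24 and 2 lower, where 11.3% of all probe sets were called higher and 11.7% lower. AT5G13900 averaged 6.95 ± 0.16 in C24 and 8.42 ± 0.20 in Col-0 (SD, n = 3 each), a difference of -1.48 ± 0.12 (SE; adjusted p = 2.90e-08, limma). AT3G22620 differed by -0.48 ± 0.13 (adjusted p = 0.0135, limma), a call lost without replicate 1 of Col-0 (-0.40, adjusted p = 0.0582, limma). AT1G62500 differed by 0.42 ± 0.10 (adjusted p = 0.00434, limma). AT2G27130 differed by 0.31 ± 0.09 (adjusted p = 0.0189, limma), a call lost without replicate 2 of Col-0 (0.25, adjusted p = 0.0839) or replicate 1 of C24 (0.29, adjusted p = 0.0627). The late genes AT2G18370 and AT3G58550 had accession differences of 0.24 and 0.25 at this stage.

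Few genes of the pathways in which lipid transfer proteins work had a probe set of their own. Of 16 suberin genes only FACT was measured, of 21 cutin and wax genes only WSD1, a wax ester synthase, and of 12 genes of systemic acquired resistance none. WSD1 stayed near the low end of the arrays, between 3.51 and 4.39. Of 8 genes of embryo cuticle signalling, the receptor kinase genes GSO1 and ACR4 were measured, and neither was called between the accessions at any stage. Of all probe sets, 10.3% were called higher in C24 and 9.22% lower at 8-9 days, and 11.3% and 11.7% at 12-13 days. At 10-11 days 19.1% were called in either direction, so that most probe sets were not called at a stage either. Of 9 regulators of seed maturation, the bZIP transcription factor genes EEL and BZIP53 were measured, and both rose from 8-9 to 12-13 days. Over this span 29.4% of all probe sets were called higher in C24 and 30.1% in Col-0. EEL rose by 1.15 ± 0.11 in C24 (adjusted p = 2.42e-08, limma) and 1.22 ± 0.11 in Col-0 (adjusted p = 9.76e-09, limma), and BZIP53 by 0.89 ± 0.09 in C24 and 0.84 ± 0.09 in Col-0. EEL rose over the first step in both accessions (0.99 in C24, 1.15 in Col-0), where 24.0% and 19.9% of all probe sets were called higher. BZIP53 rose over the second step in both (0.76 in C24, 0.33 in Col-0) and in Col-0 also over the first, by 0.51 (adjusted p = 8.10e-05, limma). Over the second step 11.7% of all probe sets were called higher in C24 and 17.6% in Col-0.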

How the data were processed

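Seed RNA of 6 groups was measured on 18 ATH1 arrays. The authors deposited 1 table of log2 intensities per probe set, and per the labels they kept only probes identical in both genomes and matching representative TAIR10 gene models, with at least 3 probes per probe set. How the background was corrected and the arrays normalized, and with which software, is not given in the sources used here. All values were used as deposited, without a filter, after 11 control probe sets were left out. A group-means model over all arrays was fitted with limma 3.58.1 (lmFit and eBayes, R 4.3.3; 12 residual and 5.80 prior degrees of freedom) for 12 comparisons, with Benjamini-Hochberg adjustment over 19755 probe sets. The pipeline was tested on simulated data.

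Probe sets were named from the platform annotation, which gave a single gene for 11763, several for 61 and none for 7942; a RefSeq table (TAIR10.1) held the gene of 11718. No protein or promoter sequences were used here, so the family was taken from lists written by hand. The members and lists were chosen with earlier results of these data known. Named family genes are, among those past the threshold, the 3 highest and 3 lowest of each accession's whole change and of each accession difference. Alternatives were a second quantile normalization, a trended robust prior, leaving out the 30% dimmest probe sets, a replicate block and leaving out each array. The number of arrays limits the precision.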

Additional observations from a re-analysis of the deposited data

Results flagged for a closer look

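Some of the genes changed differently with stage in the accessions, given here as the C24 value of a stage change less the Col-0 value. AT2G15325 differed by 2.95 from 8-9 to 10-11 days and by 3.82 to 12-13 days, and AT5G48490 by -0.66 from 8-9 to 10-11 days. The value of 3.82 is itself a comparison that chose AT2G15325, so its size reflects the choice. The other values share arrays with the comparisons that chose the genes, and no p-value is given for any of them.

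Among the other family genes (tested with limma), AT5G13900 differed by -1.35 ± 0.16 from 10-11 to 12-13 days (adjusted p = 7.35e-05), its level in C24 being 8.50 and then 6.95, and in Col-0 8.63 and then 8.42. Its value from 8-9 to 12-13 days was -1.35 (adjusted p = 1.93e-05). From 8-9 to 12-13 days the values were -2.33 for AT1G05450 (adjusted p = 0.00152), -1.29 for AT2G48130 (adjusted p = 0.000264), -1.26 for AT3G22620 (adjusted p = 0.000176), 1.36 for AT5G09370 (adjusted p = 0.00246) and 0.46 for AT1G62790 (adjusted p = 0.0177). The last was lost without replicate 1 of Col-0 at 8-9 days or replicate 1 of C24 at 12-13 days (adjusted p of 0.0532 and 0.0525).

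From 8-9 to 10-11 days the values were -2.20 for AT1G05450 (adjusted p = 0.00342), -0.78 for AT2G48130 (adjusted p = 0.0205), -0.70 for AT3G22620 (adjusted p = 0.0259) and 1.02 for AT5G09370 (adjusted p = 0.0236). The call of AT2G48130 was lost without replicate 1 or 2 of C24 at 8-9 days, replicate 2 of Col-0 at 8-9 days or replicate 1 of Col-0 at 10-11 days (adjusted p up to 0.0639). That of AT3G22620 was lost without replicate 2 of C24 at 8-9 or 10-11 days or replicate 2 or 3 of Col-0 at 10-11 days (up to 0.0744). That of AT5G09370 was lost without replicate 1 or 2 of C24 or Col-0 at 8-9 days, replicate 1 of C24 or replicate 3 of Col-0 at 10-11 days (up to 0.0708). At 8-9 days AT1G05450, AT2G48130 and AT3G22620 were higher in C24 and AT5G09370 lower, so that each stage change shares this starting difference.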

How the results depend on the processing

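The 9 tested differences of the members kept their side of the threshold in all 198 values of the alternatives run, and their direction in 197. The exception was the accession difference of AT5G48490 at 10-11 days, not past the threshold, which was 0.024 when replicate 2 of Col-0 at that stage was left out (range -0.20 to 0.024 over arrays left out, adjusted p 0.399 to 0.955). Of 858 values of untested member differences, 4 moved by more than the spread between pools, all for AT2G18370 without replicate 2 of Col-0 at 10-11 days, and each kept its sign. For 264 counts of called probe sets, 263 lay within 1.5 times the count reported; the exception was the accession difference in the change from 10-11 to 12-13 days, with 1634 probe sets, and 1040 without that array (range 1040 to 1767 over arrays left out). The accession difference of AT2G18370 at 10-11 days ranged from 1.21 to 2.84 over arrays left out (adjusted p 0.00156 to 0.0380) and had an adjusted p of 0.0325 with the trended robust prior. That of AT2G15325 ranged from -1.70 to -1.02 (adjusted p 0.000462 to 0.0151). Of 770 values for named family genes, 34 missed the threshold and none changed sign. The labels do not state whether replicate numbers pair the samples. Deviations from the group mean correlated above 0.1 in 6 of 45 same-numbered pairs of arrays (-0.21 to 0.21) and in 14 of 90 different-numbered pairs (-0.24 to 0.23). Pools shared plants and deviations within a group depend on each other, so these correlations cannot exclude a pairing. A replicate block gave 3780, 3767 and 4520 called probe sets between accessions over the 3 stages. It changed no call of a tested member and gave an adjusted p of 0.0100 (limma) for AT2G18370 at 10-11 days. The planned family list by protein sequence pattern and the promoter motif counts were not run. Low signal limits AT2G15325 in C24, AT2G18370 in Col-0 at 8-9 days and AT5G48490 at 12-13 days. Among the named family genes it limits AT2G48130 in Col-0 and AT5G13900 in both accessions at 8-9 days.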

Other observations

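Neighbours in the RefSeq gene order showed mixed courses. AT2G18360, which directly precedes AT2G18370, averaged 8.35, 8.77 and 11.22 in C24 over the 3 stages and 7.68, 9.10 and 10.96 in Col-0. AT3G58540, before AT3G58550, averaged 4.27, 5.94 and 5.61 in C24 and 4.43, 3.95 and 4.78 in Col-0, and AT3G58560, after it, lay between 8.43 and 8.73 in every group. AT2G15320, before AT2G15325, averaged 4.07, 4.88 and 5.08 in C24 and 4.18, 4.95 and 5.93 in Col-0. DIR1, which acts in systemic acquired resistance and directly precedes AT5G48490, was not analysed here, and AT5G48500, after it, averaged 8.19, 9.04 and 9.33 in C24 and 8.18, 8.88 and 8.55 in Col-0.

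The control probes for the ends of transcripts gave differences that varied between groups and between controls. The 3′ minus 5′ log2 difference of a GAPDH control averaged 0.54, 0.97 and 0.57 in C24 over the 3 stages and 0.29, 0.76 and 1.21 in Col-0, and that of an actin control 2.02, 1.78 and 1.20 in C24 and 1.89, 1.44 and 1.34 in Col-0. Another GAPDH control averaged 0.27, 0.32 and 0.18 in C24 and 0.15, 0.18 and 0.45 in Col-0. Another actin control averaged 1.85, 1.58 and 1.42 in C24 and 1.87, 1.41 and 1.73 in Col-0. The part of these end differences in the members' differences was not tested.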
